A study of Rattus norvegicus with 8 samples.

Results

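The cytochromes P450 of families 1 to 4 are the haem enzymes with which the liver oxidizes drugs, toxicants, steroids and fatty acids. Members were the genes whose probe sets carry a single P450 symbol of families 1 to 4 in the platform annotation, and 2 genes of these families are not analysed here. The choice gave 40 genes, read by 44 probe sets, of 14217 genes named on the array. The 36 genes with 1 probe set were read by it, and the 4 genes with several by the probe set with the highest mean.

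The enzymes sit in the endoplasmic reticulum, mostly of hepatocytes, and take electrons from the reductase Por and from cytochrome b5. Their transcription is set by ligand-activated receptors: the aryl hydrocarbon receptor for CYP1, CAR and PXR for CYP2B, CYP2C and CYP3A, and PPARalpha for CYP4A. In the rat several of them also differ between the sexes, because males release growth hormone in pulses and females almost continuously. Chronic liver injury and inflammation are known to lower many hepatic P450 transcripts.

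Livers were taken from Wistar rats, all male, with a cirrhosis that followed repeated inhalation of CCl4. Of the 8 rats, 4 are labelled as having received vehicle, although the series description calls them non-treated, and 4 an antiangiogenic treatment, which that description gives as angiogenesis inhibitors. All groups drank water with phenobarbital at 0.3 g/L, so a classic inducer of P450 genes through CAR was shared by vehicle and treated rats, as was CCl4, which is itself activated by P450 enzymes. The sources used here give neither the compound and its dose nor the rats' age. RNA of each liver went onto 1 array (Affymetrix Rat2302), and nothing states whether litters, cages or injury cohorts were shared, so the p-values measure the spread between these samples. Arrays are called vehicle 1 to 4 and treated 1 to 4 after their labels, and values are log2 intensities listed in that order. A difference is the treated mean minus the vehicle mean in log2 units, of which 1 is a 2-fold change, with the 95% interval and p-value of limma.

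One pair of arrays stood apart before any gene was examined. Vehicle 4 and treated 3 correlated at r = 0.996 across probe sets, and 0 of the probe sets with a mean above 7 were over 2-fold apart, where any other pair had 245 to 1627. Of the 40 P450 genes, 30 lay within 0.1 and 39 within 0.5 of each other on these arrays, and the largest gap was 0.74, for Cyp4a8. The hybridization controls BioB and BioC separated the arrays into 3 groups, namely vehicle 1 with treated 1, vehicle 2 and 3 with treated 2 and 4, and vehicle 4 with treated 3. The labels place them in different groups, and whether they hold RNA of 1 liver was not tested. The n of 4, the SDs, the p-values and the overlaps below count all 8 arrays as separate livers. The overall counts and the leading differences are therefore also given without these arrays, and within the groups of arrays for the leading genes. Array medians ran from 5.16 to 5.30, and the 3′ to 5′ log2 differences of the control probe sets from 0.13 to 0.41 for Gapdh and from 1.70 to 1.91 for beta-actin.

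Most P450 transcripts had a higher mean in treated livers, and no P450 gene passed the test. The mean was higher in 33 of 40 genes, with a median difference of 0.26, while 51.6% of all genes had a higher mean, with a median difference of 0.01. Among genes with a mean above 6 the P450 count was 27 of 33 with a median of 0.43, beside 51.8% and 0.01 of all such genes. Without vehicle 4 and treated 3 the count was again 33 of 40, and the median 0.36. With single arrays left out the median stayed between 0.20 and 0.39, the latter without treated 4. Since 1 reading of liver RNA feeds all 40 genes, these counts describe 8 livers and are not 40 independent results. In whole liver, fewer cells of a type and less RNA per cell cannot be told apart.

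At a Benjamini-Hochberg adjusted p under 0.05 in limma, 0 of the 44 P450 probe sets were called, against a background of 0% over all 31042 probe sets and 0% over genes. The smallest adjusted p on the array was 0.979, the value shared by most P450 genes. The unadjusted p was under 0.05 in 4 P450 genes with a higher mean (Cyp2j4, Cyp3a23-3a1, Cyp2d3 and Cyp4f4), beside 1.95% of all genes. It was under 0.05 in 3 with a lower mean (Cyp1b1, Cyp2j10 and Cyp2u1), beside 2.8% of all genes. Both counts moved with single livers. The higher count was 13 without treated 4, 8 without vehicle 4, and 2 without vehicle 1, vehicle 3 or treated 1. The lower count was 0 without vehicle 1, vehicle 3 or treated 2, and 1 without treated 1. Without vehicle 4 and treated 3 together the counts were 7 and 4. The count over all 31042 probe sets at an unadjusted limma p under 0.05, both directions together, moved as well. It ran from 538 to 2885 with single arrays left out.

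In 0 of the 40 genes did the 4 treated arrays all lie above or all below the vehicle arrays, whereas 0.992% of all genes were higher and 0.626% lower without overlap. The mean was at least 2-fold higher in 4 P450 genes (Cyp2c11, Cyp4a8, Cyp3a9 and Cyp3a2), beside 0.359% of all genes. It was at least 2-fold lower in 1, Cyp2c12, beside 1.32%.

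**Figure D1:**
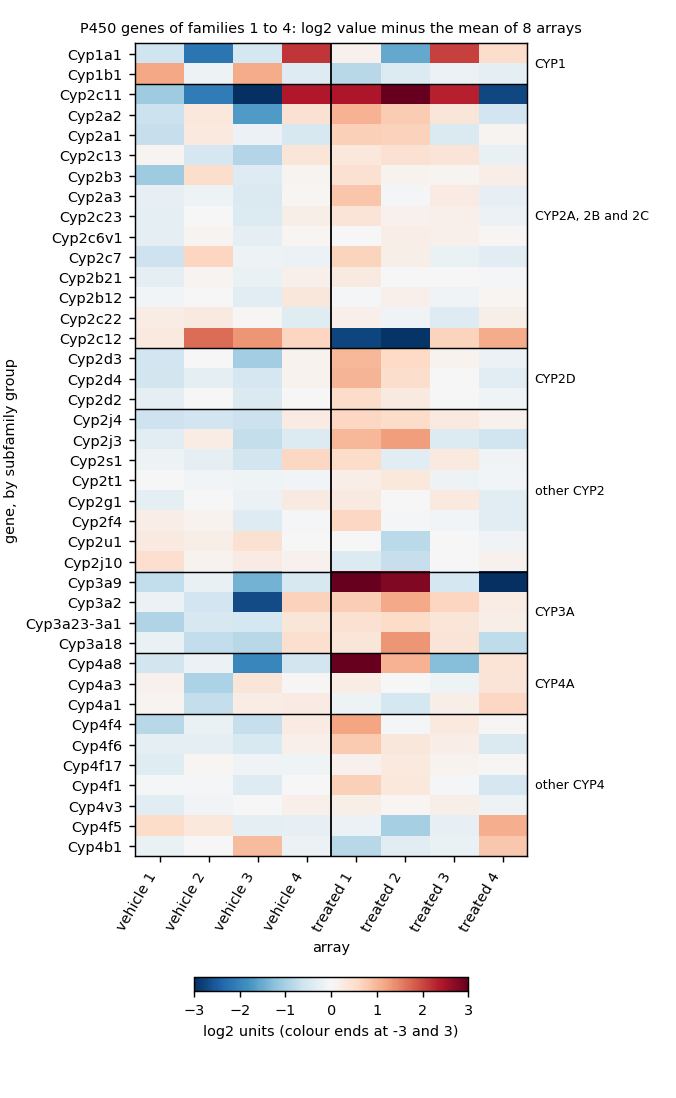
Each row is a P450 gene and each column an array, and the colour gives the log2 value minus that gene's mean over the 8 arrays, with colours ending at -3 and 3. Treated 1 held the highest value of 16 genes and vehicle 3 the lowest of 16, while vehicle 4 and treated 3 look alike throughout.

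Single livers carried much of this pattern, as the heat map of centred values shows. Treated 1 held the highest of the 8 values in 16 genes and treated 2 in 9, against 2 in treated 3 and 3 in treated 4. The lowest value lay on vehicle 3 in 16 genes and on vehicle 1 in 10, on vehicle 2 in 3 and on vehicle 4 in 0. Treated 1 exceeded all vehicle arrays in 24 genes, treated 2 in 19, treated 3 in 11 and treated 4 in 4. The range over the 8 arrays ran from 0.47 to 7.36 with a median of 1.34, and was over 2 in 11 genes and under 1 in 11. Within the groups of arrays given by the hybridization controls the median P450 difference was 0.67 for treated 1 and vehicle 1, 0.25 for the group of 4 arrays, and -0.01 for treated 3 and vehicle 4.

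**Figure D2:**
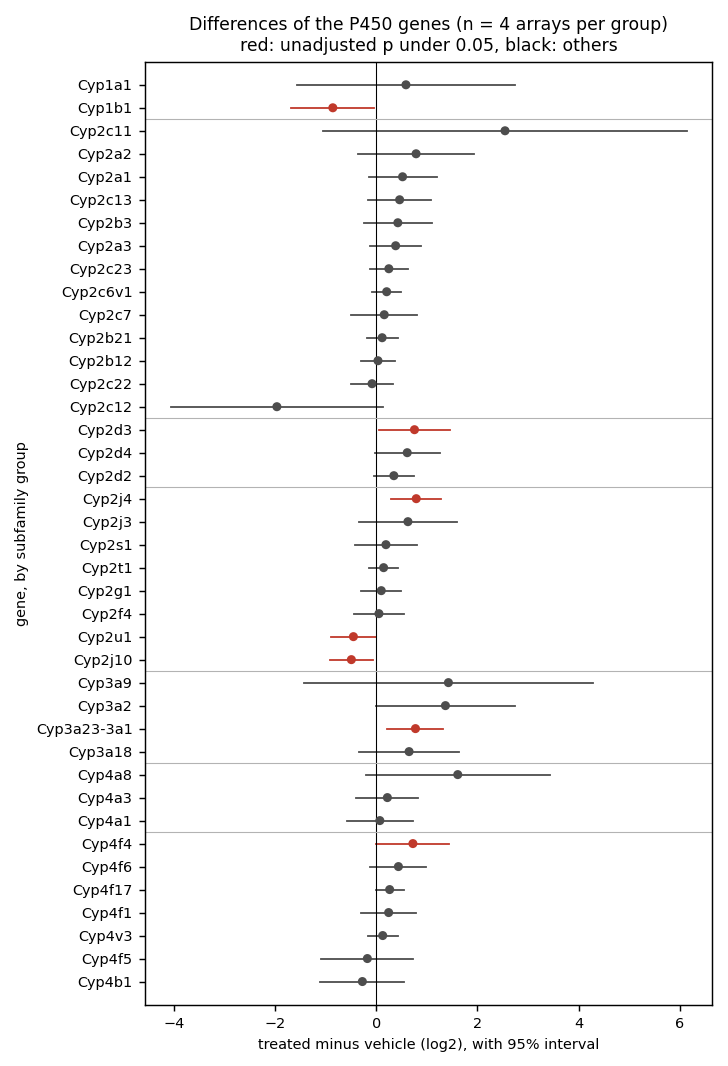
Points are the difference of each P450 gene, treated minus vehicle, in log2 units, with 95% intervals from limma, ordered by subfamily group, and the vertical line marks 0. The mean was higher in treated livers in 33 of the 40 genes, the 4 CYP3A genes had a median of 1.07, and the widest intervals belong to Cyp2c11, Cyp3a9, Cyp1a1 and Cyp2c12.

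The CYP3A enzymes oxidize many drugs and steroids and are the textbook targets of PXR. The group had the highest median difference of the subfamily groups, 1.07, and all 4 measured genes had a higher mean in treated livers. Without treated 1 that median was 0.70, and without vehicle 4 and treated 3 it was 1.44. Promoters are shown for the 2 members with the highest level, since they share a sequence that almost no other rat promoter holds. In RefSeq promoter windows of the assembly GRCr8 (250 bases before to 50 after the start of the gene, on the minus strand for both), the capitals mark AGGTCA, the half-site bound by many nuclear receptors, and then a direct repeat of AGTTCA with a spacing of 3 bases, the arrangement to which PXR is known to bind, read here on the opposite strand. Cyp3a2 lies at chr12:14343808-14344107 and Cyp3a23-3a1 at chr12:14398754-14399053.
Cyp3a2: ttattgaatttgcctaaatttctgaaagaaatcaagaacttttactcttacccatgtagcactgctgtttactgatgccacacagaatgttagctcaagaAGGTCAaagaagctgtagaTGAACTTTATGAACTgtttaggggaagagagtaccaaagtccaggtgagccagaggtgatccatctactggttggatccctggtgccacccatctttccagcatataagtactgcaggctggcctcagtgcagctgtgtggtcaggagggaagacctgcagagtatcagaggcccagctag
Cyp3a23-3a1: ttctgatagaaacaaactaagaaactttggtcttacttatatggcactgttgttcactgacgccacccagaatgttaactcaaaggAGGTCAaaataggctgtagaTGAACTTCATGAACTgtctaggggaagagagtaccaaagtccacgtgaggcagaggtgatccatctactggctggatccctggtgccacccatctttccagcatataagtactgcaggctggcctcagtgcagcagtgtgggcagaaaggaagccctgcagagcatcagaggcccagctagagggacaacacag

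Positions are those of the leftmost base of a match, counted from the start site. The repeat began at -131 in Cyp3a2 and at -144 in Cyp3a23-3a1, and AGGTCA at -150 and -164. On either strand, the spaced repeat was found in 2 of 27457 promoters (0.00728%), which were these members, and AGGTCA in 15.7% of them. A match describes letters in this window and was not measured as a bound site. The windows of Cyp3a9 and Cyp3a18 held neither motif.

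Cyp3a23-3a1 is the CYP3A gene classically induced by PXR ligands. Its values were 12.02, 12.45, 12.42 and 13.30 on the vehicle arrays and 13.38, 13.50, 13.30 and 13.12 on the treated arrays. The treated livers lay within a narrow band, and vehicle 4 alone reached it, so the groups overlapped through that array. The means were 12.55 ± 0.54 (SD, n = 4) and 13.32 ± 0.16 (SD, n = 4), a difference of 0.78 (0.22 to 1.33) or 1.71-fold (limma, unadjusted p = 0.0112, adjusted p = 0.979). Without vehicle 4 the difference was 1.03 with a limma adjusted p of 0.1145. Without both vehicle 4 and treated 3 it was 1.04 with a limma adjusted p of 0.3445. Within the groups of arrays the differences were 1.36, 0.87 and 0.00.

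Cyp3a2 is the male-predominant CYP3A of the adult rat. It read 12.53, 12.13, 10.02 and 13.38 on the vehicle arrays and 13.44, 13.85, 13.35 and 12.92 on the treated arrays. Vehicle 3 was far below the rest, and vehicle 4 sat among the treated livers. The difference was 1.37 (-0.01 to 2.75), 2.58-fold, with an unadjusted limma p of 0.0515 and an adjusted p of 0.979. It was 0.70 without vehicle 3 and 1.84 without vehicle 4 and treated 3.

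Cyp3a9, a female-predominant and oestrogen-responsive CYP3A, was the most variable of the 4 among treated livers. Its values were 7.29, 7.80, 6.60 and 7.54 with vehicle and 11.63, 10.79, 7.49 and 5.04 with treatment. Treated 1 and 2 were far above every vehicle array, while treated 4 was below all of them. The difference of 1.43 (-1.43 to 4.29; limma adjusted p = 0.979) was 0.46 without treated 1, 0.74 without treated 2, 2.66 without treated 4 and 1.92 without vehicle 4 and treated 3. Cyp3a18, another hepatic CYP3A, read 10.95, 10.40, 10.30 and 11.61 with vehicle and 11.51, 12.46, 11.53 and 10.37 with treatment, a difference of 0.65 (-0.34 to 1.64). Its groups overlapped, and the difference was 0.32 without treated 2, 1.02 without treated 4 and 0.90 without vehicle 4 and treated 3.

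The largest differences in both directions fell on enzymes whose level separates male from female rat liver. Cyp2c11, a testosterone hydroxylase, is the standard marker of the male growth hormone pattern, and Cyp2c12, a steroid sulfate hydroxylase, that of the female pattern. Their RefSeq promoter windows (GRCr8) are shown because these genes had the highest and the lowest difference among the members. Cyp2c11 lies on the plus strand at chr1:246174966-246175265 and Cyp2c12 on the minus strand at chr1:248676985-248677284. Capitals mark AGGTCA in Cyp2c11 and the core ATCAAT of HNF6, a liver factor known to activate Cyp2c12, on both strands in Cyp2c12.
Cyp2c11: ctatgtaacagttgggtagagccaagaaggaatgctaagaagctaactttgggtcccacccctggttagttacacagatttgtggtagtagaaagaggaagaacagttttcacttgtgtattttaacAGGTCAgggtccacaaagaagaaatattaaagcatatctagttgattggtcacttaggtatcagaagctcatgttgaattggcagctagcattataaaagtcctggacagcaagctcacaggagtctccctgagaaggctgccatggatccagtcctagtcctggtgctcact
Cyp2c12: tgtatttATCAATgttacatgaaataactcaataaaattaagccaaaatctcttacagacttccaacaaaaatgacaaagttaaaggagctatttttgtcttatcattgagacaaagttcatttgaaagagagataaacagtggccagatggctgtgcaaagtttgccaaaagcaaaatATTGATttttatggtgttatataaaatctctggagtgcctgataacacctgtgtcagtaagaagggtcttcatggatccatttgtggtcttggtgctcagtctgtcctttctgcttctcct

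AGGTCA began at -123 in Cyp2c11, and the HNF6 core at -243 and, on the opposite strand, at -71 in Cyp2c12. The HNF6 core was present in 7.87% of all promoters and in 4 of the 33 member promoters (Cyp2c12, Cyp2c13, Cyp2c7 and Cyp4f1). TTCNNNGAA, the core bound by STAT5 downstream of growth hormone, stood in 8.68% of all promoters and in 4 members (Cyp2b12, Cyp2j4, Cyp2t1 and Cyp4a8), and not in these windows of Cyp2c11 and Cyp2c12. The absence of letters in 300 bases shows nothing about the factor.

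Cyp2c11 spanned the widest range of all members. Its values were 9.47, 8.44, 6.23 and 12.94 on the vehicle arrays and 12.98, 13.59, 12.89 and 7.82 on the treated arrays. The livers thus fell into high readings on vehicle 4 and treated 1, 2 and 3, and low readings on vehicle 1, 2 and 3 and treated 4, so that each group held both. The means were 9.27 ± 2.80 (SD, n = 4) and 11.82 ± 2.69 (SD, n = 4), a 5.85-fold difference of 2.55 (-1.04 to 6.14; limma, unadjusted p = 0.143, adjusted p = 0.979). It was 3.88 without treated 4, 1.53 without vehicle 3, and 3.42 without vehicle 4 and treated 3.

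Cyp2c12 divided the livers in another way. It read 11.03, 12.40, 12.04 and 11.36 with vehicle and 7.96, 7.79, 11.40 and 11.83 with treatment. Treated 1 and 2 were low, and the other 6 livers lay together between 11.03 and 12.40, including vehicle 4 and treated 3, on which Cyp2c11 was high. The means of 11.71 ± 0.62 (SD, n = 4) and 9.75 ± 2.17 (SD, n = 4) differed by -1.96 (-4.05 to 0.13), 3.90-fold lower in treated livers (limma, unadjusted p = 0.0627, adjusted p = 0.979). Without vehicle 4 and treated 3 the difference was -2.63.

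The other sex-biased enzymes differed by less. Cyp2c13, a male-specific CYP2C, read 13.11, 12.53, 12.15 and 13.40 with vehicle and 13.35, 13.49, 13.41 and 12.80 with treatment, a difference of 0.46 (-0.16 to 1.09) that was 0.25 without vehicle 3. The male-specific testosterone hydroxylase Cyp2a2 read 10.57, 11.55, 9.52 and 11.70 with vehicle and 12.26, 11.98, 11.60 and 10.65 with treatment, a difference of 0.79 (-0.36 to 1.94) that was 0.35 without vehicle 3. In both genes treated 4 was the lowest treated liver and vehicle 4 the highest vehicle liver, as in Cyp2c11. Averaged over the 4 male-biased genes (Cyp2a2, Cyp2c11, Cyp2c13 and Cyp3a2), the level was 11.42, 11.16, 9.48 and 12.86 on the vehicle arrays and 13.01, 13.23, 12.81 and 11.05 on the treated arrays, with a median difference of 1.08. The groups overlapped through vehicle 4 and treated 4. The median was 0.53 without vehicle 3 and 1.46 without vehicle 4 and treated 3.

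Of the 3 genes listed as female-biased (Cyp2c12, Cyp2a1 and Cyp2c7), 2 had a higher mean in treated livers and the median difference was 0.16. With Cyp3a9 added, a choice made after its values were seen, it was 3 of 4 with a median of 0.34. Cyp2a1, a testosterone hydroxylase, read 10.33, 11.34, 10.87 and 10.56 with vehicle and 11.74, 11.72, 10.60 and 11.12 with treatment, a difference of 0.52 (-0.15 to 1.19). Its highest readings were on treated 1 and 2. Cyp2c7, a retinoid hydroxylase, read 12.58, 13.83, 13.03 and 13.01 with vehicle and 13.85, 13.36, 13.00 and 12.87 with treatment. Its difference of 0.16 (-0.50 to 0.82) was -0.03 without treated 1, -0.02 without vehicle 1 and 0.40 without vehicle 2. The direction of the female-biased genes was therefore mixed, with Cyp2c12 lower on treated 1 and 2 and Cyp2a1 highest on the same livers.

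**Figure D3:**
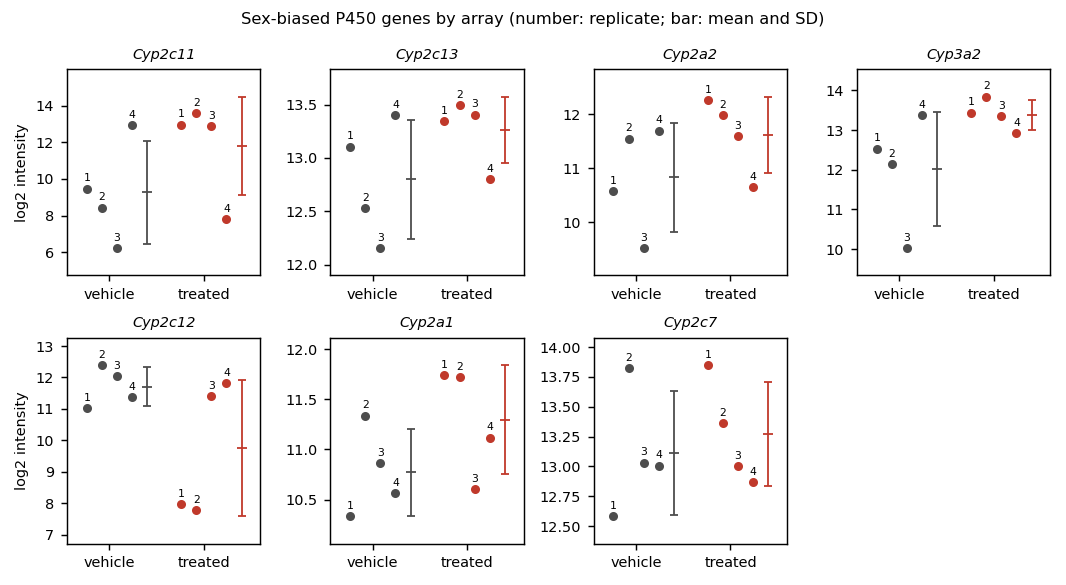
Each panel shows the log2 intensity of 1 sex-biased P450 gene on the 8 arrays by group, with the replicate number at each point and a bar for the mean and SD of 4 arrays. Cyp2c11 is low on vehicle 1, 2 and 3 and on treated 4 (6.23 to 9.47), and Cyp2c12 is low on treated 1 and 2 only (7.96 and 7.79).

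Together the CYP2A, CYP2B and CYP2C genes, which hydroxylate drugs, steroids and polyunsaturated fatty acids, numbered 13 with the 6 sex-biased ones above. In treated livers 11 of the 13 had a higher mean, with a median of 0.25 that was 0.15 without vehicle 1. Their 2 brightest probe sets, those of Cyp2c22 and Cyp2c6v1, ranged over less than 1 unit. Cyp2c22, which hydroxylates retinoic acid, read 13.84, 13.90, 13.66 and 13.25 with vehicle and 13.78, 13.52, 13.22 and 13.80 with treatment, a difference of -0.08 (-0.50 to 0.33) that was 0.04 without treated 3 and -0.22 without vehicle 4. Cyp2c6v1, a constitutive CYP2C that phenobarbital induces further, read 13.28, 13.64, 13.30 and 13.63 with vehicle and 13.58, 13.77, 13.73 and 13.60 with treatment, a difference of 0.21 (-0.07 to 0.49). The arachidonate epoxygenase Cyp2c23 differed by 0.25 (-0.12 to 0.63) and Cyp2b3, a constitutive CYP2B, by 0.43 (-0.25 to 1.10). In these 4 genes the groups overlapped. Cyp2a3, Cyp2b12 and Cyp2b21, which are mainly expressed outside the liver, had means below 6 and differed by 0.39, 0.04 and 0.12.

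The list of classic phenobarbital-inducible P450 genes held 9 symbols, some of them alternative names of the same gene. Cyp2b1 and Cyp2b2 were on the list but not among the members. The 3 genes measured among the members (Cyp2c6v1, Cyp3a23-3a1 and Cyp3a2) all had a higher mean, with a median of 0.78. Their average ran from 11.91 to 13.44 on the vehicle arrays and from 13.21 to 13.71 on the treated arrays, with overlap through vehicle 4. The 7 measured genes of the phenobarbital response other than P450, which include conjugating enzymes and transporters, had a median of 0.20. It was 0.07 without vehicle 3 and 0.34 without vehicle 2. Of the 7, 6 had a higher mean, beside 51.6% of all genes. An unadjusted limma p under 0.05 was found in 0 of them, beside 1.95% (higher) and 2.8% (lower) of all genes. With so few genes a count of 0 is uninformative. The 3 genes of that list with the smallest unadjusted limma p were Ugt2b1, a glucuronosyltransferase, the export pump Abcc3 and the aldehyde reductase Akr7a3. They differed by 0.86, 0.91 and 0.59. Gadd45b, the 1 gene with a lower mean, differed by -0.72. Por and Alas1 are also on the list of electron transfer and haem supply below.

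The CYP2D genes encode constitutive drug oxidases that classic inducers hardly affect, and all 3 had a higher mean, with a median of 0.61 that was 0.38 without treated 1. Cyp2d3 read 11.29, 11.84, 10.81 and 11.94 with vehicle and 12.84, 12.45, 11.96 and 11.67 with treatment. Treated 1, 2 and 3 were above all vehicle livers, treated 3 by a small margin, and treated 4 lay within the vehicle range. The means were 11.47 ± 0.53 (SD, n = 4) and 12.23 ± 0.52 (SD, n = 4), a difference of 0.76 (0.05 to 1.47) or 1.69-fold (limma, unadjusted p = 0.0392, adjusted p = 0.979), and 1.55, 0.73 and 0.01 within the groups of arrays. Without vehicle 4 and treated 3 it was 1.005. Cyp2d2 read 12.82, 13.12, 12.66 and 13.12 with vehicle and 13.66, 13.38, 13.11 and 12.97 with treatment, a difference of 0.35 (-0.05 to 0.75), which was 0.22 without treated 1.

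Cyp2d4, the CYP2D that the rat also expresses in brain, read 7.73, 8.02, 7.77 and 8.38 with vehicle and 9.30, 8.81, 8.28 and 7.95 with treatment, a difference of 0.61 (-0.03 to 1.26) that was 0.38 without treated 1 and 0.85 without vehicle 4 and treated 3. Its dimmer second probe set gave 0.96 (limma, unadjusted p = 0.0224). In all 3 CYP2D genes treated 1 was the highest and treated 4 the lowest of the treated livers.

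The CYP2J genes encode arachidonic acid epoxygenases, and their means differed in both directions. Cyp2j4 had the smallest unadjusted p of all P450 genes. Its promoter is shown because it holds the STAT5 core, in capitals. That core stood in 4 of the 33 member promoters, beside 8.68% of all promoters, and its part in the Cyp2j4 difference was not tested. The window lies on the minus strand of GRCr8 at chr5:116322993-116323292, and the match begins at -160.
Cyp2j4: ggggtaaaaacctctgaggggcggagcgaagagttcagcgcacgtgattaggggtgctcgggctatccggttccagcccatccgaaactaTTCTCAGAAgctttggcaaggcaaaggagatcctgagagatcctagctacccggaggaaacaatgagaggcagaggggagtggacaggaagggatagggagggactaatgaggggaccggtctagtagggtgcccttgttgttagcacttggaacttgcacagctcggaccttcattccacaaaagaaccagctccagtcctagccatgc

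Cyp2j4 read 8.60, 8.66, 8.57 and 9.48 on the vehicle arrays and 9.85, 9.77, 9.51 and 9.36 on the treated arrays. Vehicle 1, 2 and 3 lay within 0.1 of each other and below every treated liver, and vehicle 4 lay among the treated livers. The means were 8.83 ± 0.44 (SD, n = 4) and 9.62 ± 0.23 (SD, n = 4), a difference of 0.79 (0.30 to 1.29) or 1.73-fold (limma, unadjusted p = 0.00548, adjusted p = 0.979). Without vehicle 4 it was 1.01 with an adjusted limma p of 0.103, the smallest that any P450 gene described on all arrays reached in any alternative. Without both vehicle 4 and treated 3 it was 1.045 with an adjusted limma p of 0.2937. Within the groups of arrays the differences were 1.24, 0.95 and 0.03.

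Cyp2j3 read 9.14, 9.71, 8.77 and 9.07 with vehicle and 10.47, 10.75, 9.08 and 8.90 with treatment. Treated 1 and 2 were above all other livers, and the difference of 0.63 (-0.34 to 1.59) was 0.40 without treated 1 and 0.31 without treated 2. Cyp2j10 had a lower mean in treated livers, with 6.68, 6.29, 6.43 and 6.32 with vehicle and 5.77, 5.50, 6.18 and 6.31 with treatment. Its means of 6.43 ± 0.18 (SD, n = 4) and 5.94 ± 0.37 (SD, n = 4) differed by -0.49 (-0.92 to -0.06), 1.40-fold lower (limma, unadjusted p = 0.0287, adjusted p = 0.979). Without vehicle 4 and treated 3 the Cyp2j10 difference was -0.61. Treated 1 and 2 held the lowest Cyp2j10 values and the highest Cyp2j3 values.

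Cyp2u1, a fatty acid hydroxylase known mainly from brain and thymus, read 7.17, 7.09, 7.38 and 6.91 with vehicle and 6.91, 6.11, 6.92 and 6.82 with treatment. The difference was -0.45 (-0.90 to -0.00; limma, unadjusted p = 0.0491, adjusted p = 0.979), and -0.26 without treated 2, the one liver clearly below the others. Without vehicle 4 and treated 3 it was -0.60. Cyp2f4, which activates naphthalene in the lung, read 8.39, 8.30, 7.81 and 8.15 with vehicle and 8.80, 8.12, 8.09 and 7.84 with treatment, a difference of 0.05 (-0.43 to 0.54). Treated 1 was the highest liver and vehicle 3 the lowest, and the difference was -0.14 without the former and -0.06 without the latter. Cyp2g1 and Cyp2s1, which are best known from tissues other than liver, differed by 0.10 and 0.19, and Cyp2t1 by 0.15. The list for tissues outside the liver held 9 symbols and did not include Cyp2b12 and Cyp2b21. Of its genes 6 were measured and 4 had a higher mean, with a median of 0.08 that was 0.20 without treated 4 and -0.01 without treated 1.

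**Figure D4:**
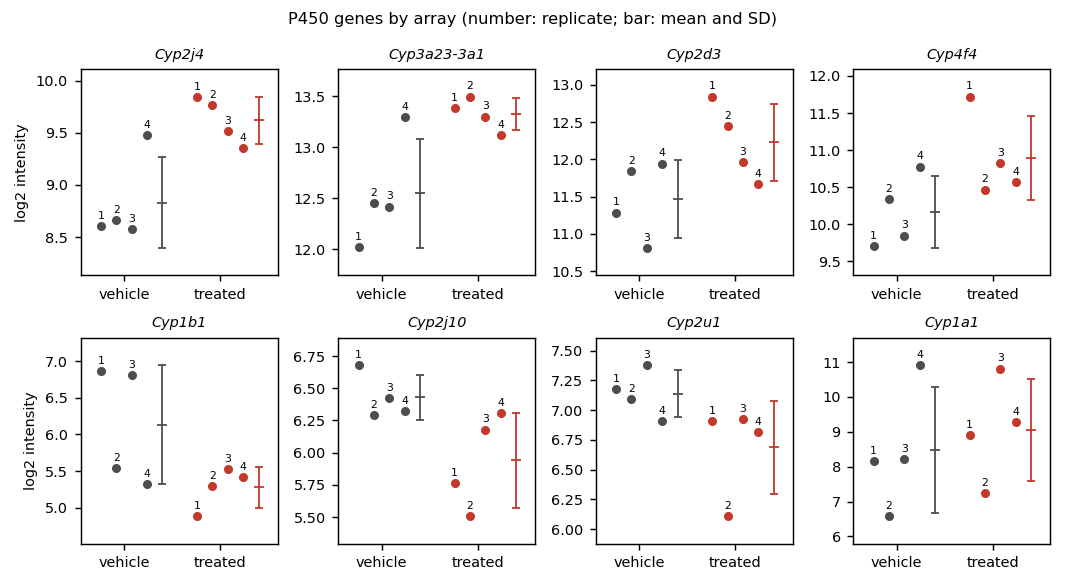
Each panel shows the log2 intensity of 1 P450 gene on the 8 arrays by group, with the replicate number at each point and a bar for the mean and SD of 4 arrays. Panels are Cyp1a1 and the 7 genes with an unadjusted limma p under 0.05, and in each of the 4 with a higher mean vehicle 4 (9.48 for Cyp2j4, 13.30 for Cyp3a23-3a1) lies within the treated range.

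The CYP1 enzymes activate polycyclic hydrocarbons and are induced through the aryl hydrocarbon receptor. The 2 genes differed in opposite directions. Cyp1b1, which oxidizes oestradiol and procarcinogens and is known from mesenchymal cells more than from hepatocytes, read 6.86, 5.54, 6.81 and 5.32 with vehicle and 4.88, 5.29, 5.52 and 5.42 with treatment. Vehicle 1 and 3 were high, and vehicle 2 and 4 lay at the level of the treated livers. The means of 6.13 ± 0.81 (SD, n = 4) and 5.28 ± 0.28 (SD, n = 4) differed by -0.86 (-1.68 to -0.04), 1.81-fold lower (limma, unadjusted p = 0.0424, adjusted p = 0.979), and by -1.21 without vehicle 4 and treated 3. The same vehicle livers, 1 and 3, also had the highest average of 8 stellate cell and myofibroblast markers, 8.99 and 8.89 against 7.58 to 8.50 on treated arrays. They had the highest averages of the leukocyte markers (7.40 and 7.43) and the endothelial markers (8.11 and 8.11) too. Other livers paired high marker averages with low Cyp1b1. Vehicle 2 had an endothelial average of 8.00 with Cyp1b1 at 5.54. Treated 4 had the next highest stellate cell (8.50) and leukocyte (6.91) averages with Cyp1b1 at 5.42. The part of these cells in the Cyp1b1 difference was not tested.

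Cyp1a1 read 8.16, 6.57, 8.23 and 10.91 with vehicle and 8.90, 7.23, 10.81 and 9.29 with treatment. The highest readings were on vehicle 4 and treated 3 and the lowest on vehicle 2 and treated 2, so the groups overlapped. The difference of 0.59 (-1.57 to 2.75; limma adjusted p = 0.981) was 0.01 without treated 3, -0.04 without vehicle 2, 1.20 without treated 2 and 1.40 without vehicle 4. Without vehicle 4 and treated 3 it was 0.82.

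The CYP4A enzymes hydroxylate the end of fatty acid chains and are classic targets of PPARalpha, and all 3 had a higher mean, with a median of 0.22. Cyp4a8 varied most, with 6.38, 6.76, 4.99 and 6.40 on the vehicle arrays and 9.99, 7.99, 5.66 and 7.34 on the treated arrays. Treated 1, 2 and 4 were above all vehicle livers and treated 3 was below most of them. The means were 6.13 ± 0.78 (SD, n = 4) and 7.75 ± 1.79 (SD, n = 4), a difference of 1.61 (-0.20 to 3.43) or 3.06-fold (limma, unadjusted p = 0.0755, adjusted p = 0.979), which was 0.86 without treated 1 and 2.397 without vehicle 4 and treated 3. Its second probe set gave 1.47 (limma, unadjusted p = 0.0226).

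The bright PPARalpha targets did not share that pattern. Cyp4a1 read 11.11, 10.31, 11.25 and 11.28 with vehicle and 10.88, 10.50, 11.21 and 11.65 with treatment, a difference of 0.07 (-0.58 to 0.72). Cyp4a3 read 11.46, 10.39, 11.71 and 11.38 with vehicle and 11.58, 11.32, 11.19 and 11.73 with treatment, a difference of 0.22 (-0.39 to 0.83). Vehicle 2 was the lowest liver for both, and without it the differences were -0.15 and -0.06. The CYP4A median was then -0.06 as well.

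Among the other CYP4 genes, most of which inactivate leukotrienes and hydroxylate eicosanoids, 5 of 7 had a higher mean, with a median of 0.25 that was 0.09 without treated 1. Cyp4f4 read 9.71, 10.33, 9.85 and 10.78 with vehicle and 11.72, 10.47, 10.82 and 10.56 with treatment. Treated 1 stood above the rest, and vehicle 4 lay above treated 2 and 4. The means of 10.17 ± 0.49 (SD, n = 4) and 10.89 ± 0.57 (SD, n = 4) differed by 0.73 (0.00 to 1.45), 1.65-fold (limma, unadjusted p = 0.0489, adjusted p = 0.979), and by 0.45 without treated 1. Without vehicle 4 and treated 3 they differed by 0.95. Cyp4f1 read 12.00, 11.99, 11.66 and 12.07 with vehicle and 12.77, 12.38, 12.01 and 11.55 with treatment, a difference of 0.25. Treated 4 was below all vehicle livers for this gene. The difference was 0.05 without treated 1 and 0.45 without treated 4.

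Cyp4f6 and Cyp4f17 differed by 0.44 and 0.27. The brighter probe set of Cyp4v3, a fatty acid hydroxylase known from the eye, read 10.88, 11.10, 11.19 and 11.34 with vehicle and 11.36, 11.24, 11.37 and 11.05 with treatment. It differed by 0.13 (-0.17 to 0.43), and by 0.05 without vehicle 1, and its dimmer one by 0.61. All livers lay close together for this gene. Cyp4f5 read 6.97, 6.74, 6.12 and 6.16 with vehicle and 6.23, 5.41, 6.18 and 7.49 with treatment, a difference of -0.17 that was 0.13 without treated 2 and -0.56 without treated 4. Cyp4b1, an enzyme of lung and airway, read 7.47, 7.66, 8.61 and 7.50 with vehicle and 6.85, 7.35, 7.48 and 8.47 with treatment, a difference of -0.27 (-1.10 to 0.56). Vehicle 3 and treated 4 were the high livers, so each group held 1 of them. The difference was -0.0043 without vehicle 3, -0.04 without treated 1 and -0.58 without treated 4.

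The partners that P450 enzymes need were higher by mean as a list. Of 13 genes listed for electron transfer and haem supply, 12 were measured and all 12 had a higher mean in treated livers, with a median of 0.29. They include Hmox1, which degrades haem and differed by 0.20 (-1.39 to 1.79). Of the 12, 2 had an unadjusted limma p under 0.05, beside 1.95% of all genes. Cyb5a, the microsomal cytochrome b5, averaged 13.09 ± 0.15 (SD, n = 4) with vehicle and 13.39 ± 0.12 (SD, n = 4) with treatment, and its groups did not overlap. The highest vehicle array (13.2123) and the lowest treated array (13.2175) nearly met, and 0.992% of all genes were likewise higher without overlap. Its difference was 0.30 (0.04 to 0.57; limma, unadjusted p = 0.0293, adjusted p = 0.979). Cyb5b differed by 0.58 and the haem-inserting ferrochelatase Fech by 0.34. The list average ran from 10.07 to 10.58 on the vehicle arrays and from 10.51 to 10.76 on the treated arrays, with medians of 0.58, 0.31 and 0.01 within the groups of arrays.

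Of 16 regulators of P450 transcription, 15 were measured, 12 had a higher mean and the median was 0.15, or 0.29 without treated 2. Of these, 3 had a higher mean with an unadjusted limma p under 0.05, beside 1.95% of all genes. The aryl hydrocarbon receptor Ahr read 6.35, 5.75, 6.56 and 6.78 with vehicle and 6.84, 7.11, 6.88 and 7.51 with treatment, with a narrow gap between vehicle 4 and treated 1, and a difference of 0.73 (0.19 to 1.26; limma, unadjusted p = 0.0131, adjusted p = 0.979). Of all genes, 0.992% were likewise higher without overlap. Nr1i3, which encodes CAR, read 4.39, 6.17, 4.30 and 5.30 with vehicle and 6.85, 6.24, 5.29 and 6.39 with treatment, a difference of 1.15 (0.12 to 2.18; limma, unadjusted p = 0.0326, adjusted p = 0.979). Treated 3 and vehicle 2 and 4 kept its groups overlapping. Rxra, the shared partner of CAR, PXR and PPARalpha, differed by 0.53, while Nr1i2, which encodes PXR and was picked after its value was seen, differed by -0.32.

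P450 genes of families 5 and above, which make bile acids, steroid hormones and retinoid metabolites, had a higher mean in 7 of 16 cases, and the median was -0.04. Among the 9 with a mean above 6, 6 had a higher mean and the median was 0.27. The difference between this list and families 1 to 4 was not tested. Cyp27a1, which oxidizes the cholesterol side chain on the way to bile acids, averaged 11.51 ± 0.24 (SD, n = 4) and 11.91 ± 0.21 (SD, n = 4), a difference of 0.40 (limma, unadjusted p = 0.0326, adjusted p = 0.979). Cyp39a1, an oxysterol hydroxylase, differed by 0.64 and the retinoic acid hydroxylase Cyp26a1 by 1.27.

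Markers of other cell types differed in mean as well. Hepatocyte markers, which carry the label of the tissue, were bright on every array, with list averages from 13.56 to 13.73 with vehicle and from 13.30 to 13.69 with treatment, and 2 of 12 had a higher mean with a median of -0.06. In contrast 0 of 7 endothelial markers had a higher mean (median -0.78), 1 of 8 stellate cell and myofibroblast markers (median -0.71), 2 of 9 leukocyte markers (median -0.69), 0 of 5 bile duct markers (median -0.34) and 0 of 6 cell cycle genes (median -1.52). With single arrays left out these medians kept their sign, but the bile duct median ran from -0.62 without treated 4 to -0.14 without treated 3, and the endothelial median from -1.20 without vehicle 4 to -0.47 without vehicle 2. The cell cycle median was -0.99 without treated 1. The 3 lung and airway markers averaged 3.74 to 4.23, near the lower quartile of the arrays (3.74 to 3.91), too dim to compare. The cell cycle average was lowest on treated 1 and 2, at 4.89 and 5.01, the livers with the highest P450 averages, 9.83 and 9.55, and reached 8.66 on vehicle 1 and 8.03 on treated 4. Endothelial averages were 8.11, 8.00, 8.11 and 6.85 with vehicle and between 6.84 and 7.02 with treatment, so vehicle 4 again lay with the treated livers. The part of these cells in the P450 differences was not tested.

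**Figure D5:**
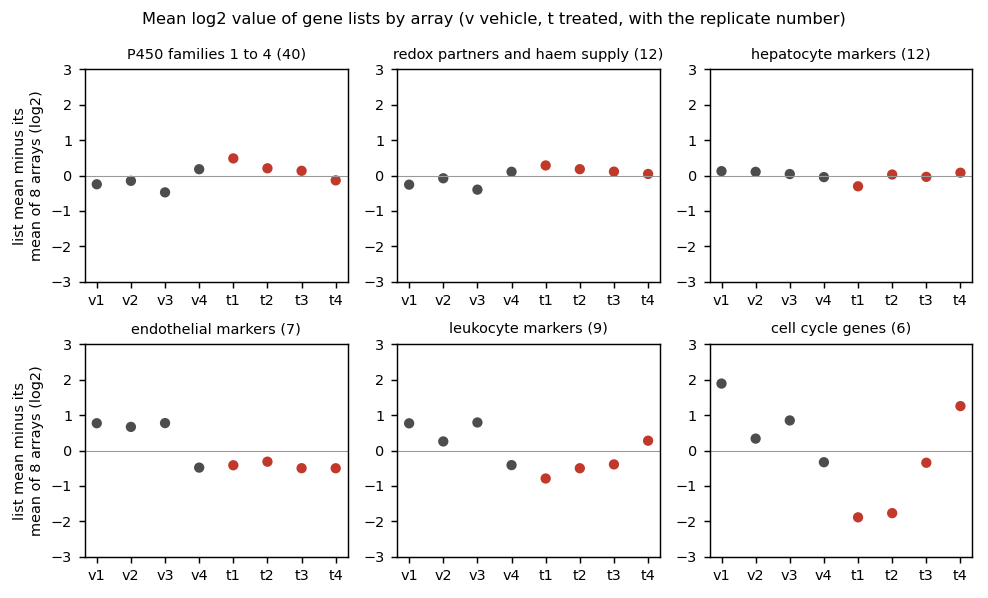
Each panel shows, for 1 gene list, its mean log2 intensity on each array (v vehicle, t treated) minus the average over the 8 arrays, with the number of genes in brackets. Before centring the P450 mean was highest on treated 1 (9.83) and lowest on vehicle 3 (8.87), and the cell cycle mean was lowest on treated 1 (4.89) and highest on vehicle 1 (8.66).

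The genome holds these genes in clusters. Of the 40 members, 33 matched a RefSeq promoter by symbol, and they lay on chromosomes 1 (15 genes), 5 (6), 7 (6), 12 (4), 2 (1) and 6 (1). Across the 33 windows, AGGTCA was found in 10, beside 15.7% of all promoters. GCGTG, the core bound by the aryl hydrocarbon receptor, was found in 6, beside 31.1% of all promoters. TTGCGCAA, the palindrome of C/EBP, was found in 0 members and 0.197% of all promoters. The inverted repeat of GTTAAT around 1 base, a strict form of the HNF1 site, was found in 0 members and 0.00364% of all promoters.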

How the data were processed

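Liver RNA of 4 vehicle and 4 treated rats was measured on 1 array each. Per the labels' protocols, Trizol and RNeasy RNA was copied with a T7-(dT) primer into biotinylated cRNA, which favours the 3′ end of transcripts. The deposited values are log2 intensities that the authors made with affy and RMA, per the submitters' processing notes, and they were used as deposited. RMA draws small differences of dim probe sets towards 0, and quantile steps can hide a shift shared by most genes. No depth applies to arrays, so precision is limited by 4 arrays per group.

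Treated was compared with vehicle with limma 3.58.1 in R 4.3.3 (lmFit and eBayes, no covariates, 6 residual degrees of freedom), adjusted over 31042 probe sets after 57 control probe sets were left out, and the procedure was tested on simulated data. SDs are those of 4 arrays. Genes with several probe sets were read by the one with the highest mean. The 4 probe sets with several P450 symbols were not used.

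Values on all arrays are given for the 3 members with the highest mean in each subfamily group, those with an unadjusted p under 0.05, and the 5 largest differences in each direction among means above 6. Cyp2a1, Cyp2a2 and Cyp2c13 were added to these as sex-biased genes after their values were seen. Other lists name up to 3 genes by smallest p, and Nr1i2, Hmox1 and Gadd45b besides, after their values were seen. The members and lists were chosen with earlier results of these data known. Alternatives covered normalization, centring, filters at the 40th percentile and at 6, robust eBayes, array weights, probe set choice, a replicate block, a spike-in block, and leaving out arrays. Promoters came from RefSeq (GRCr8), and 7 members had no match. Shares of promoters with a motif are descriptions and were not tested.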

Additional observations from a re-analysis of the deposited data

Results flagged for a closer look

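In 60 groups of 4 arrays, 1 array was tested for lying far from the other 3 with Dixon's criterion for the gap relative to the group's range, which chance alone passes in about 5% of groups. It was passed in 4. Treated 4 read 7.82 for Cyp2c11, 5.07 below the nearest treated array. Vehicle 4 read 9.48 for Cyp2j4, 0.819 above the nearest vehicle array. Treated 2 read 6.11 for Cyp2u1, 0.708 below the nearest treated array. Vehicle 3 read 8.61 for Cyp4b1, 0.959 above the nearest vehicle array.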

How the results depend on the processing

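No P450 probe set was called under any alternative run. Over all probe sets 3 were called without vehicle 4 and treated 3, and 0 to 11 with single arrays left out, the 11 without vehicle 4. The count of P450 genes with a higher mean and an unadjusted limma p under 0.05, 4 in the reported fit, was 8 with array weights, 2 with the spike-in block, 7 without vehicle 4 and treated 3, 6 with median centring, and 2 to 13 with single arrays left out. The count with a lower mean, 3 in the reported fit, was 1 with the filter at 6, 1 with quantile normalization, 0 with the spike-in block and 0 to 3 with single arrays left out. Over all probe sets of a fit, the count at an unadjusted limma p under 0.05 in either direction ran from 481 to 2885 in the alternatives. The causes were not tested. Of 30 genes described on all arrays, 23 kept their sign in every alternative run, and the reversals all came from leaving out 1 array. With single arrays left out the difference ran from -0.0439 to 1.40 for Cyp1a1, -0.22 to 0.0374 for Cyp2c22, -0.0333 to 0.40 for Cyp2c7, -0.14 to 0.18 for Cyp2f4, -0.15 to 0.26 for Cyp4a1, -0.0598 to 0.38 for Cyp4a3 and -0.56 to 0.13 for Cyp4f5. The median P450 difference kept its sign in all alternatives. Same-numbered arrays did not deviate together (r from -0.62 to 0.04). With 4 arrays per group this cannot show whether the numbers pair the samples, and the hybridization controls did group vehicle 1 with treated 1. With a replicate block the counts were 4 and 2, with 33 genes higher and a median of 0.26. Dim probe sets limit what can be seen for the 7 genes with a mean of 6 or below.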
